A study of Mus musculus with 9 samples.

Results

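The genes described here are 10 feedback inhibitors of the MAP kinase pathways: the dual-specificity phosphatases Dusp1, Dusp2, Dusp4, Dusp5, Dusp6 and Dusp10, the Sprouty genes Spry1, Spry2 and Spry4, and Spred1. They were taken by symbol from a deposited table of 20778 gene symbols. All 10 were present, and all 10 were among the 13773 genes with a mean of at least 10 that were tested. The study measured bulk RNA of the mouse glioblastoma line GL261 in 3 settings, with 3 libraries each. It asked how closely a dish or a printed gel resembles the tumour in the animal.

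The tumour group came from immunocompetent male C57BL/6 mice, 5 in all and 7 weeks old. Under anaesthesia with xylazine at 12 mg/kg and ketamine at 150 mg/kg, each received 50000 mCherry-labelled GL261 cells in the striatum, and brains were taken on day 14. The titles call these libraries whole tumour cells, and a sort for mCherry is not mentioned. The 2D culture and the 3D bioink both held the same penta-culture, GL261 with primary astrocytes, microglia, pericytes and endothelial cells from brains of male C57BL/6 mice aged 6 to 10 weeks. GL261 was seeded at 1000000 cells per ml, on a petri dish or in a fibrin gel, and the 5 cell types were mixed in parts of 1, 1, 2, 0.1 and 0.1. Microglia were selected with CD11b beads, endothelial cells with CD31 beads and pericytes with AN2 and CD144 beads, and the remaining cells were used as astrocytes. Before RNA isolation the 3D bioink alone is recorded as digested, with collagenase II (600 U/ml, 3 h) and a 70 µm mesh. That step and the gel cannot be told apart in these data. GL261 is a single tumour line.

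Signals from growth factor receptors pass through RAS, RAF and MEK to the kinase ERK, while stress and cytokine signals reach the kinases JNK and p38. Active MAP kinases switch on genes for their own inhibitors, which close a negative feedback loop. Dual-specificity phosphatases remove phosphate from the kinases themselves, Sprouty proteins act nearer the receptor, and Spred1 brings neurofibromin, which switches RAS off, to the membrane. In glioma, where receptor tyrosine kinases and RAS signalling are often active, RNA of ERK-induced inhibitors such as Dusp6 and Spry4 is used as a readout of pathway output.

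Values are normalized counts as deposited, rounded by the authors, and their read depth is unknown. Differences are on the log2(value + 1) scale, and each adjusted p is from limma with Benjamini-Hochberg adjustment over all 13773 genes tested, with a threshold of 0.05. The titles number the libraries but do not say that they came from separate mice or cultures, so p-values measure only the spread between libraries, which may be technical. The sums of values ran from 13548461 to 16388074 over the 9 libraries and were lowest in the 3D bioink. Replicate 1 of the 3D bioink differed most from its group, as its array weight was 0.236 against at least 0.688 for every other library. In these mixtures, fewer cells of a type and less RNA per cell cannot be told apart. Of 12 microglia and macrophage markers, 11 were lower in each culture group than in tumours. Their summed value was 55660 to 59689 in tumours, 246 to 309 in 2D culture and 588 to 644 in 3D bioink, with Tyrobp at 0 in every culture library and C1qa at 0 in every 2D library. Microglia were seeded in both cultures, so these defining markers go against the labelled makeup. The summed astrocyte markers (8 genes) were 5394 to 5815 in tumours, 6098 to 6366 in 2D culture and 6519 to 6878 in 3D bioink, but Gfap and Slc1a3 were lower in each culture than in tumours, and of the 8 genes 3 were higher and 3 lower in 2D culture and 3 higher and 2 lower in 3D bioink. The 10 endothelial markers summed to 6056 to 6386, 4860 to 5238 and 5759 to 8092. Pecam1 made up most of each sum (means 4263, 3650 and 3866). The highest sum is 3D replicate 1, with Pecam1 at 5407 against 3162 and 3030 in the others. Of 9 tested, 1 was higher and 5 lower in 2D culture than in tumours, and 2 were higher and 3 lower in 3D bioink. Cldn5 was low in both cultures (means 128, 4.33 and 18), while Cdh5 was high in both (155, 592 and 607). For 8 pericyte markers the sums were 1618 to 1825, 1047 to 1066 and 2512 to 2606, with Kcnj8 at 0 in 2D culture. Most of each was Cspg4 (means 1319, 699 and 1984). Of 6 tested, 2 were higher and 3 lower in 2D culture than in tumours, and 4 higher and 1 lower in 3D bioink. Acta2 was lowest in 3D bioink (means 145, 64 and 17.3). The 7 neuron markers summed to 4807 to 5048, 1684 to 1766 and 917 to 1183, nearly all of it Tubb3 in tumours and 2D culture. Rbfox3 was at 0 in tumours and 2D culture and Slc17a7 at 0 in 2D culture. Syt1, Gad1 and Snap25, also neuron markers, had their highest means in 3D bioink (289, 18.3 and 9.67). Their part in the results was not tested.

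The inhibitors did not move as a block. In 3D bioink against tumours 8 of the 10 were lower and 2 higher, beside 37.3% lower, 27.1% higher and 64.4% called in either direction over all genes tested. The 8 include Dusp10, whose difference was no longer called when libraries were scaled to equal sums. In 2D culture against tumours 8 were lower, 1 was higher and 1 was not called, beside 27.0% lower, 27.3% higher and 54.3% called in either direction. In 3D bioink against 2D culture 8 were higher and 2 lower, beside 27.0% higher, 32.2% lower and 59.2% called in either direction. Groups did not overlap for 10 of the 10 in 3D bioink against tumours (67.6% of all genes), for 9 in 2D culture against tumours (63.9%) and for 10 in 3D bioink against 2D culture (67.1%). These comparisons share libraries, so they are not independent of each other. The share of called genes that were higher depends on scaling. In 3D bioink against tumours it was 42.1% as deposited and 51.2% to 56.1% under 3 other scalings. In 3D bioink against 2D culture it was 45.6% as deposited and 46.6% to 60.1% under these scalings. Dusp1, Dusp2, Dusp5, Dusp10, Spry2 and Spry4 were highest in tumours, intermediate in 3D bioink and lowest in 2D culture. Dusp6 and Spry1 were also highest in tumours but lowest in 3D bioink. Dusp4 and Spred1 were highest in 3D bioink.

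**Figure D1:**
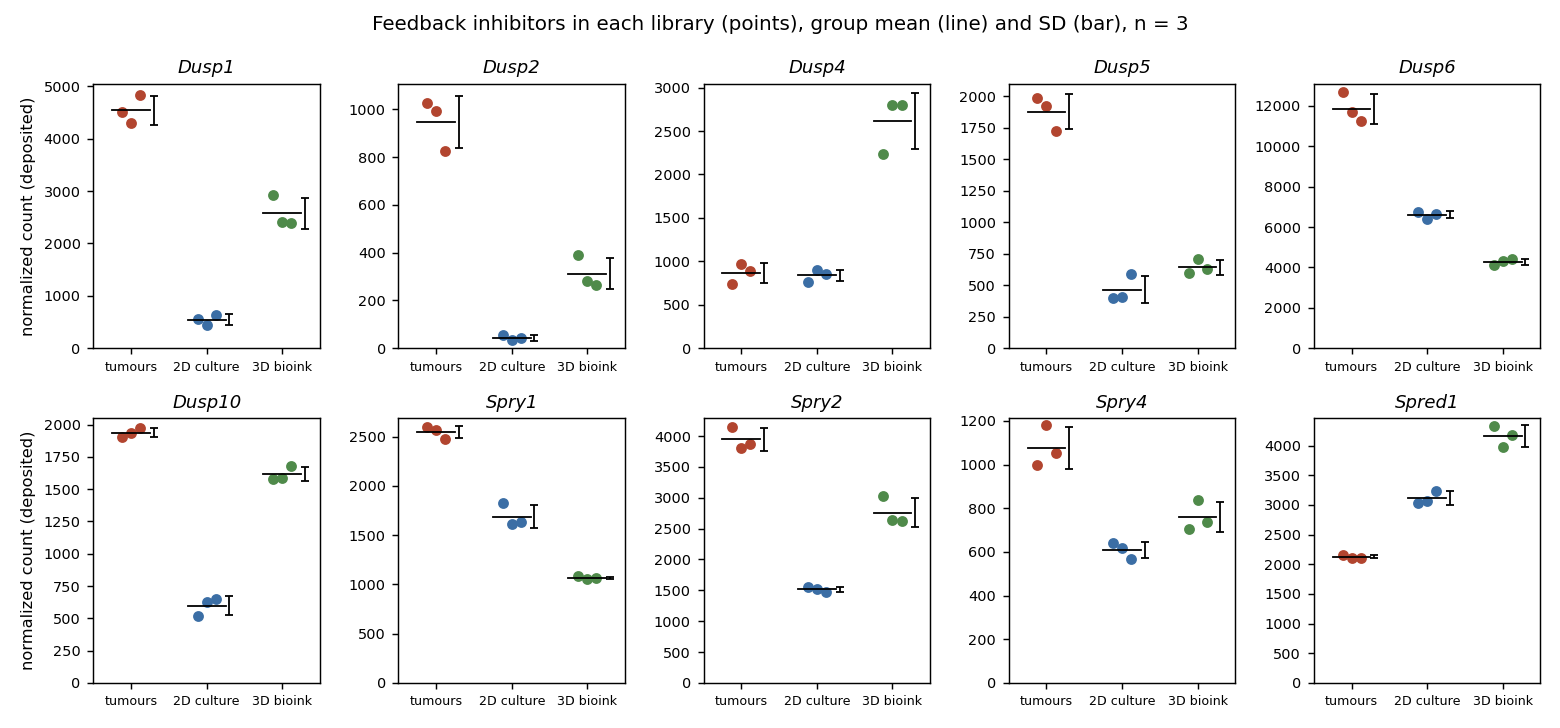
Deposited normalized count (vertical axis, from 0) of each of the 10 feedback inhibitors in the 3 libraries of tumours, 2D culture and 3D bioink (points), with the group mean (line) and SD (bar). Dusp4 overlaps between tumours (744 to 971) and 2D culture (766 to 894), while no other gene overlaps between any groups.

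Dusp1 encodes a nuclear phosphatase of p38, JNK and ERK and is an immediate early gene, induced within minutes by serum, stress and cytokines. It lies on chromosome 17 (26505591 to 26508472 in GRCm38.p6, minus strand). Its values were 4503, 4297 and 4835 in tumours and 560, 443 and 636 in 2D culture, against 2920, 2410 and 2399 in 3D bioink. All tumour libraries lay above all 3D libraries, and these above all 2D libraries. The group means were 4545 ± 271, 546 ± 97.2 and 2576 ± 298 (SD, n = 3 each). Dusp1 was 8.39-fold lower in 2D culture than in tumours (log2 -3.07, SE 0.13, adjusted p = 3.61e-08). In 3D bioink it was 1.77-fold lower than in tumours (log2 -0.82, SE 0.13, adjusted p = 0.000305, or -0.55 after quantile normalization) and 4.74-fold higher than in 2D culture (log2 2.25, adjusted p = 4.29e-07). Among genes in the table, Ergic1 overlaps Dusp1 on the opposite strand. Whether reads were counted by strand is not given in the sources used here. Ergic1 had means of 1464 in tumours, 2221 in 2D culture and 1159 in 3D bioink, another order than Dusp1.

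Dusp2 encodes a nuclear phosphatase of ERK and p38 best known from activated leukocytes. It had the widest span of the 10 genes. Its values were 1025, 995 and 824 in tumours and 56, 33 and 41 in 2D culture, against 388, 282 and 266 in 3D bioink. The 3 groups did not overlap, and 2D culture was far below the others. Dusp2 was 21.8-fold lower in 2D culture than in tumours (log2 -4.45, SE 0.22, adjusted p = 1.06e-07). In 3D bioink it was 3.06-fold lower than in tumours (log2 -1.61, SE 0.22, adjusted p = 0.000112) and 7.12-fold higher than in 2D culture (log2 2.83, adjusted p = 2.89e-06). The summed microglia and macrophage markers had the same order of groups. So had the summed value of 9 T and NK cell markers, at 1033 to 1164 in tumours, 260 to 292 in 2D culture and 305 to 316 in 3D bioink. Most of the culture sums came from Lck (means 182 in 2D culture and 72 in 3D bioink) and Cd3d (70 and 146). Cd3d did not have that order, as its mean in tumours was 111. Between the cultures, 6 of the 12 microglia and macrophage markers and 5 of 8 tested T and NK cell markers were higher in 3D bioink, while Lck was lower (34 to 99, against 161 to 202 in 2D culture). Cd2 and Nkg7 were at 0 in all culture libraries. The part of these cells in the Dusp2 differences was not tested.

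Dusp5 encodes a nuclear phosphatase specific for ERK. Its values were 1988, 1923 and 1721 in tumours and 398, 406 and 589 in 2D culture, against 593, 709 and 628 in 3D bioink. Both cultures lay far below the tumours and close to each other, with the highest 2D library (589) just under the lowest 3D library (593). Dusp5 was 4.10-fold lower in 2D culture than in tumours (log2 -2.03, SE 0.15, adjusted p = 1.65e-06) and 2.92-fold lower in 3D bioink (log2 -1.54, SE 0.15, adjusted p = 1.01e-05). The difference between the cultures was 1.40-fold (log2 0.49, SE 0.15, adjusted p = 0.0161). It was not called without 2D replicate 1 (log2 0.39, adjusted p = 0.0636), without 2D replicate 2 (log2 0.41, adjusted p = 0.0629) or without 3D replicate 2 (log2 0.42, adjusted p = 0.0568).

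Dusp10 encodes a phosphatase of JNK and p38. Its values were 1905, 1931 and 1975 in tumours and 514, 624 and 653 in 2D culture, against 1580, 1588 and 1680 in 3D bioink. Only 2D culture stood far off. Dusp10 was 3.26-fold lower in 2D culture than in tumours (log2 -1.70, SE 0.09, adjusted p = 1.51e-07) and 2.72-fold higher in 3D bioink than in 2D culture (log2 1.44, SE 0.09, adjusted p = 5.98e-07). Between 3D bioink and tumours the groups did not overlap, but the difference was 1.20-fold (log2 -0.26, 95% confidence interval -0.46 to -0.07, adjusted p = 0.0241). That call ended without tumour replicate 2 (log2 -0.26, adjusted p = 0.0544) or 3 (log2 -0.25, adjusted p = 0.0649) and without 3D replicate 1 (log2 -0.25, adjusted p = 0.0527) or 2 (log2 -0.25, adjusted p = 0.0612). It also ended after quantile normalization (log2 -0.09, adjusted p = 0.375), at equal upper quartiles (log2 -0.02, adjusted p = 0.834) and at equal sums (log2 0.00, adjusted p = 0.995). 1700056E22Rik overlaps Dusp10 on the opposite strand and had means of 66 in tumours, 32 in 2D culture and 27.3 in 3D bioink.

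The promoters of 8 of the 10 genes were matched in RefSeq (GRCm38.p6), as 250 bases before to 50 after the gene start. They were searched on both strands for an AP-1 site (TGACTCA), the core of a cyclic AMP response element (CRE, TGACGTC), an ETS site (CCGGAAG) and the promoter element called TATA box, with the letters TATAAA. The CArG box, bound by serum response factor, was searched by name. Matches were found in 2 promoters, those of Dusp1 and Dusp5. The sequences of these and of Dusp6, the member with the highest level per length, are shown 5′ to 3′ on the gene's strand, with matches in capitals. They are Dusp1 at chr17:26508423-26508722 (minus strand), Dusp5 at chr19:53528895-53529194 (plus strand) and Dusp6 at chr10:99262981-99263280 (plus strand).
Dusp1: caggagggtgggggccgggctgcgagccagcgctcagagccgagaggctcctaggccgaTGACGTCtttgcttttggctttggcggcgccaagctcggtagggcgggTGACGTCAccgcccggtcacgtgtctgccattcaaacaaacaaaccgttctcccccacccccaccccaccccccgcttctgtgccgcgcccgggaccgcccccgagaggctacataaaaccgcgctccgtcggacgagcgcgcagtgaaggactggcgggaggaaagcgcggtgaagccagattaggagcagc
Dusp5: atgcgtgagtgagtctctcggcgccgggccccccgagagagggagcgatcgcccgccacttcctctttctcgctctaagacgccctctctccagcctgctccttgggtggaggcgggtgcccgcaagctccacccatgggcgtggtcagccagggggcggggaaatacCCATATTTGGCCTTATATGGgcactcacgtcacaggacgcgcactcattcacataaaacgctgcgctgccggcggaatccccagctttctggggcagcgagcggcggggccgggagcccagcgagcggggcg
Dusp6: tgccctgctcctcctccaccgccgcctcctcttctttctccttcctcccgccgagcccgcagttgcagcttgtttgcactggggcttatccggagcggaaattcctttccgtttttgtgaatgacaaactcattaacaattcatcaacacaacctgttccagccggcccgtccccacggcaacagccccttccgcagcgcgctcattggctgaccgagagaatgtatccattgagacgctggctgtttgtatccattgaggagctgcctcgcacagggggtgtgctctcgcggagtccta

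In Dusp1 the CRE core starts 191 and 143 bases before the gene start, and the second copy overlaps a match on the other strand, which starts 142 bases before it. Of 32851 promoters of the same length, 3.21% held a CRE core. In Dusp5, 2 CArG boxes adjoin, starting 82 and 72 bases before the gene start, and 1.63% of promoters held a CArG box. The AP-1 site was in 5.20%, the ETS site in 8.86% and the TATA box in 13.6% of promoters, and in none of the 8 windows. These matches describe letters in a window and carry no measurement of binding. For Spred1 the end of the window was not found in a GENCODE M21 transcript of the gene, unlike for the other windows.

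Dusp6 encodes a cytoplasmic phosphatase specific for ERK and is a direct target of ERK through ETS factors. It lies on chromosome 10 (99263231 to 99267489, plus strand). Its values were 12676, 11681 and 11238 in tumours and 6753, 6412 and 6660 in 2D culture, against 4107, 4293 and 4404 in 3D bioink. The groups did not overlap, and the 3D bioink was the lowest, unlike for Dusp1, Dusp2, Dusp5 and Dusp10. Dusp6 was 1.79-fold lower in 2D culture than in tumours (log2 -0.84, SE 0.05, adjusted p = 7.98e-07) and 2.78-fold lower in 3D bioink (log2 -1.47, SE 0.05, adjusted p = 2.21e-08). It was 1.55-fold lower in 3D bioink than in 2D culture (log2 -0.63, SE 0.05, adjusted p = 6.83e-06), or by -0.34 on the log2 scale after quantile normalization.

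Dusp4, a nuclear phosphatase of ERK and JNK, had its own order. Its values were 744, 971 and 893 in tumours and 766, 894 and 854 in 2D culture, against 2239, 2802 and 2797 in 3D bioink. Every 3D library was above every other library, and tumours and 2D culture overlapped. Dusp4 was 3.01-fold higher in 3D bioink than in tumours (log2 1.59, SE 0.12, adjusted p = 2.21e-06) and 3.10-fold higher than in 2D culture (log2 1.63, SE 0.12, adjusted p = 2.25e-06). Between 2D culture and tumours the difference was -0.05 on the log2 scale (95% confidence interval -0.32 to 0.22, adjusted p = 0.771). Its sign turned without tumour replicate 2 (0.04), without 2D replicate 1 (0.02) and at equal sums (0.02), with no call under any of these.

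**Figure D2:**
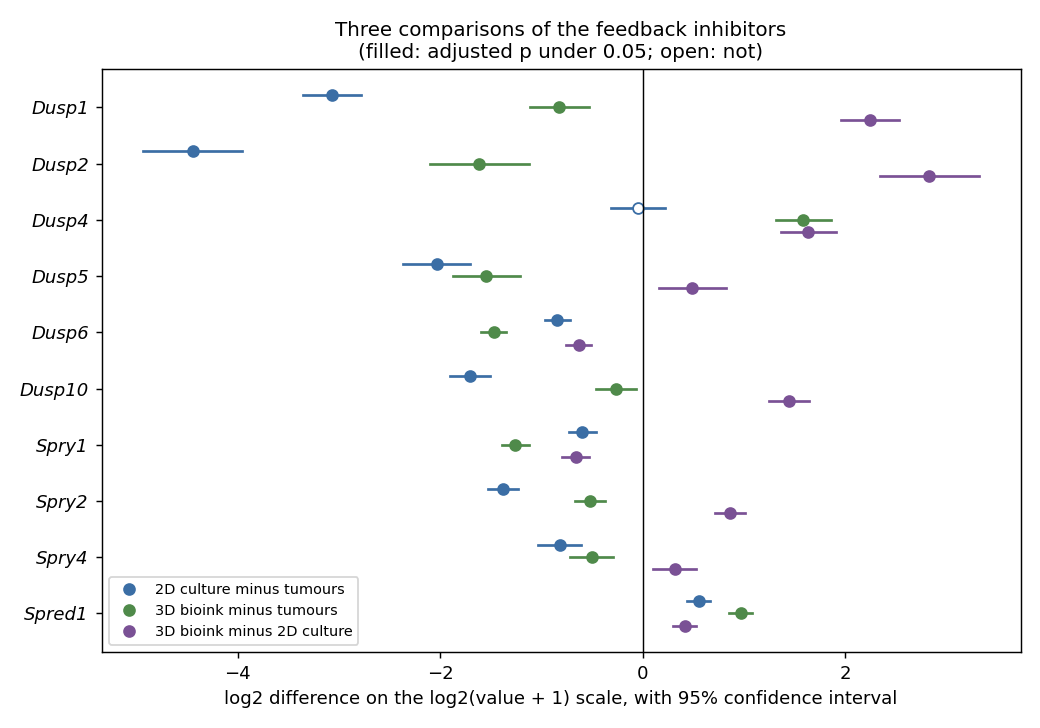
Log2 difference (horizontal axis, with its 95% confidence interval) of each feedback inhibitor for 2D culture minus tumours, 3D bioink minus tumours and 3D bioink minus 2D culture. Filled points passed an adjusted p of 0.05 and the open point, Dusp4 in 2D culture minus tumours, did not. Dusp2 spans -4.45 to 2.83, and Dusp10 in 3D bioink minus tumours (-0.26) was not called under 3 other scalings.

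The Sprouty genes encode inhibitors that are phosphorylated after receptor activation and block the path from receptor to RAF. Spry2 (chromosome 14, 105891947 to 105896819) had values of 4153, 3807 and 3877 in tumours and 1552, 1516 and 1480 in 2D culture, against 3026, 2636 and 2619 in 3D bioink. The groups did not overlap, and 2D culture was lowest. Spry2 was 2.60-fold lower in 2D culture than in tumours (log2 -1.38, SE 0.07, adjusted p = 1.00e-07). In 3D bioink it was 1.43-fold lower than in tumours (log2 -0.52, adjusted p = 8.34e-05, and -0.28 to -0.23 under 3 other scalings) and 1.82-fold higher than in 2D culture (log2 0.86, adjusted p = 3.08e-06).

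Spry1 (chromosome 3, 37639947 to 37644599) shared the order of Dusp6. Its values were 2594, 2569 and 2480 in tumours and 1822, 1611 and 1632 in 2D culture, against 1080, 1052 and 1061 in 3D bioink. No groups overlapped, and the 3D libraries lay close together. Spry1 was 1.51-fold lower in 2D culture than in tumours (log2 -0.60, SE 0.06, adjusted p = 1.88e-05) and 2.39-fold lower in 3D bioink (log2 -1.26, SE 0.06, adjusted p = 1.12e-07). It was 1.58-fold lower in 3D bioink than in 2D culture (log2 -0.66, SE 0.06, adjusted p = 9.24e-06, and -0.43 at equal upper quartiles), so Spry1 and Spry2 were called in opposite directions between the cultures.

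Spry4, on chromosome 18, had values of 996, 1181 and 1053 in tumours and 639, 619 and 568 in 2D culture, against 706, 838 and 736 in 3D bioink. The groups did not overlap but the cultures were close. Spry4 was 1.77-fold lower in 2D culture than in tumours (log2 -0.82, SE 0.09, adjusted p = 4.82e-05). It was 1.42-fold lower in 3D bioink than in tumours (log2 -0.50, SE 0.09, adjusted p = 0.00109), which was not called at equal upper quartiles (log2 -0.26, adjusted p = 0.0601). It was 1.25-fold higher in 3D bioink than in 2D culture (log2 0.32, SE 0.09, adjusted p = 0.0159), which was not called without 2D replicate 3 (log2 0.27, adjusted p = 0.0618) or without 3D replicate 2 (log2 0.25, adjusted p = 0.0576), and was 0.46 to 0.55 under 3 other scalings.

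Spred1 (chromosome 2, 117121071 to 117182279) was the single member higher than tumours in both cultures. Its values were 2153, 2107 and 2110 in tumours and 3035, 3070 and 3242 in 2D culture, against 4337, 3967 and 4175 in 3D bioink. The groups did not overlap and the order was the reverse of that of Dusp6. Spred1 was 1.47-fold higher in 2D culture than in tumours (log2 0.55, SE 0.05, adjusted p = 9.68e-06), 1.96-fold higher in 3D bioink than in tumours (log2 0.97, SE 0.05, adjusted p = 1.98e-07) and 1.33-fold higher in 3D bioink than in 2D culture (log2 0.42, SE 0.05, adjusted p = 7.12e-05, and log2 0.68 after quantile normalization). Nf1, which encodes neurofibromin, the protein that Spred1 recruits, had values of 1265, 1356 and 1355 in tumours and 1233, 1224 and 1282 in 2D culture, against 3568, 2725 and 2847 in 3D bioink. Nf1 was higher in 3D bioink than in tumours (log2 1.19, adjusted p = 2.81e-06) and than in 2D culture (log2 1.28, adjusted p = 2.17e-06), and was not called between 2D culture and tumours (log2 -0.09, adjusted p = 0.461).

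Levels can be set between genes only per length. Divided by the longest coding transcript in GENCODE M21, Dusp6 had the highest normalized count per kilobase of the 10 in every group, at 4244 ± 263 in tumours, 2364 ± 63.0 in 2D culture and 1526 ± 53.7 in 3D bioink (SD, n = 3 each). The order below it changed. Dusp1 ranked second in tumours (2284 ± 136 per kilobase), below 5 other members in 2D culture (275 ± 48.9) and below Dusp6 and Spry2 in 3D bioink (1295 ± 149.6). Spry2 ranked below Dusp1 in tumours (1891 ± 87.7) and second in both cultures (726 ± 17.2 in 2D culture and 1323 ± 110.3 in 3D bioink). In 3D bioink Dusp1 and Spry2 overlapped per kilobase, from 1206 to 1467 and from 1255 to 1450. The lowest per kilobase were Spry4 in tumours (226 ± 19.9) and in 3D bioink (159.8 ± 14.6) and Dusp2 in 2D culture (26.8 ± 7.22).

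**Figure D3:**
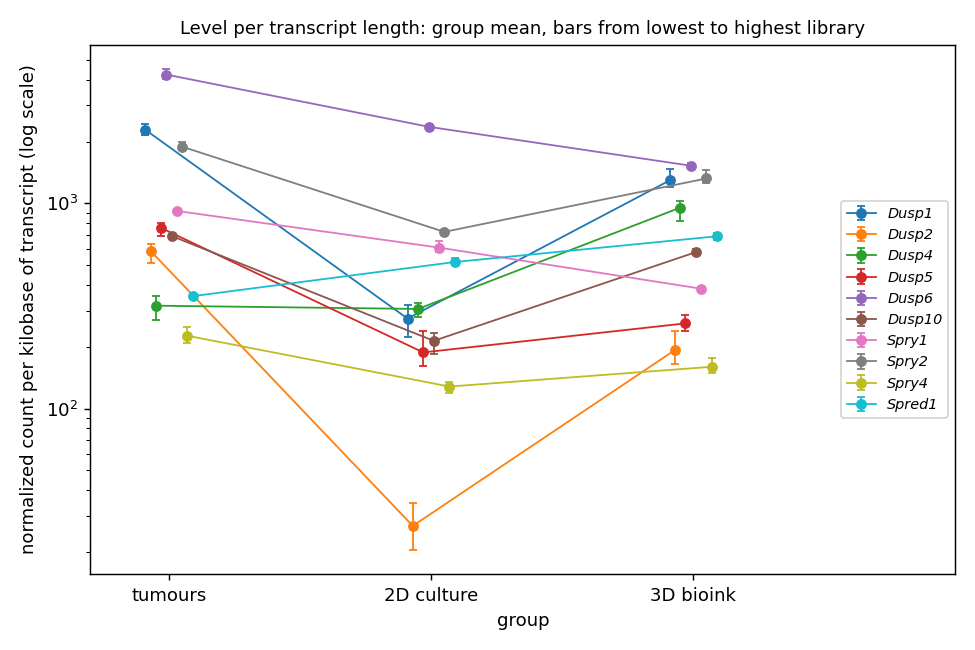
Normalized count per kilobase of the longest coding transcript (vertical log axis) for each feedback inhibitor in tumours, 2D culture and 3D bioink. Points are means of 3 libraries, bars run from the lowest to the highest library, and lines join the means of 1 gene. Dusp6 is highest in every group, and Dusp2 goes from 586 in tumours to 26.8 in 2D culture and 193 in 3D bioink.

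The remaining MAP kinase phosphatases, Sprouty and Spred genes (Dusp7, Dusp8, Dusp9, Dusp16, Spry3, Spred2 and Spred3) were also fitted. In 3D bioink against tumours 1 of these 7 was lower and none was higher, with a median log2 difference of -0.15 beside -0.11 for all genes and -0.67 for the 10 inhibitors. At equal sums or equal upper quartiles 2 were higher and 1 lower, and the median turned to 0.11 and 0.09. Dusp8, a phosphatase of JNK and p38, had values of 1376, 1395 and 1404 in tumours and 487, 488 and 507 in 2D culture, against 737, 739 and 693 in 3D bioink. It was lower in both cultures than in tumours (log2 -1.49 in 2D culture, adjusted p = 3.88e-08, and -0.94 in 3D bioink, adjusted p = 9.23e-07). Dusp16, another phosphatase of JNK and p38, was lower in 2D culture than in tumours (log2 -0.85, adjusted p = 7.97e-06) and higher in 3D bioink than in 2D culture (log2 0.81, adjusted p = 1.20e-05). Dusp9 was low throughout, at 5 to 14 in tumours, 14 to 22 in 2D culture and 4 to 5 in 3D bioink. Its values passed the filter of a mean of at least 10 only through 2D culture (means 9.67, 18 and 4.67). It was called lower in 3D bioink than in 2D culture (log2 -1.73, adjusted p = 0.0148), at -2.90 after quantile normalization, and was not called without 2D replicate 1 (adjusted p = 0.0628). In 2D culture against tumours 1 of the 7 was higher and 3 lower, and in 3D bioink against 2D culture 3 were higher and 2 lower. Counts of this list and of those below stand beside the shares over all genes tested. In 3D bioink against tumours 27.1% were higher and 37.3% lower. The shares were 27.3% and 27.0% in 2D culture against tumours, and 27.0% and 32.2% in 3D bioink against 2D culture.

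Other genes known to be induced by ERK also had more than 1 order of groups. Of 12 listed, 11 were tested. In 3D bioink against tumours 8 were lower and none higher, with a median log2 difference of -0.78. Under 3 other scalings 6 to 7 were lower and at most 1 higher, and 7 were lower without 3D replicate 1. Myc, 1 of the 8, was also not called with array weights (adjusted p = 0.0554). Nor was it called without tumour replicate 1 (0.125) or 2 (0.0778) or without 2D replicate 2 (0.0540). In 2D culture against tumours 6 were lower and 3 higher (median -0.23), or 5 lower with no filter and under the 3 other scalings. Myc was the gene lost there (main adjusted p = 0.0414), and also with the replicate block (0.0541). Its call also ended without tumour replicate 1 (0.134) or 2 (0.0860), 2D replicate 1 (0.150) or 2 (0.103), or 3D replicate 3 (0.0511). In 3D bioink against 2D culture 4 were higher and 4 lower (median 0.00). Under the 3 other scalings 5 to 6 were higher and 3 to 4 lower there (median 0.20 to 0.24). The early genes Egr1, Fos and Ier3 had the order of Dusp1, while Myc and Fosl1 did not: Myc was not called between the cultures (log2 0.00, adjusted p = 0.978), and Fosl1 was called in no comparison. Egr1, a zinc finger transcription factor, had values of 28303, 29805 and 27852 in tumours and 691, 640 and 747 in 2D culture, against 9095, 9285 and 9249 in 3D bioink. Fos, a subunit of AP-1, was lower in 2D culture than in tumours (log2 -5.55, adjusted p = 8.65e-12) and higher in 3D bioink than in 2D culture (log2 4.06, adjusted p = 1.12e-10). Ier3, an early response gene, was also lowest in 2D culture, at 192 to 218, against 1625 to 1730 in tumours and 616 to 940 in 3D bioink.

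Of the ERK-induced genes, Etv5, Epha2, Ccnd1 and Etv4 were called lower in 3D bioink than in 2D culture, as were Dusp6 and Spry1. The full order differed, as Epha2, Ccnd1 and Etv4 had their highest mean in 2D culture, and Dusp6 and Spry1 in tumours. The Etv4 call ended at equal upper quartiles (log2 -0.23, adjusted p = 0.0803). Etv5, an ETS factor, had values of 2943, 2797 and 2813 in tumours and 2710, 2674 and 2555 in 2D culture, against 1502, 1650 and 1850 in 3D bioink. It was lower in 3D bioink than in tumours (log2 -0.78, adjusted p = 1.00e-05) and than in 2D culture (log2 -0.67, adjusted p = 3.42e-05), and was not called between 2D culture and tumours (log2 -0.11, adjusted p = 0.250). Etv1, also an ETS factor, was instead lowest in 2D culture, at 236 to 257, against 538 to 617 in tumours and 554 to 641 in 3D bioink. Epha2, an ephrin receptor, was higher in 2D culture than in tumours (log2 0.70, adjusted p = 0.000327) and lower in 3D bioink than in tumours (log2 -1.38, adjusted p = 2.46e-06). Phlda1 did not share this difference between the cultures. It was lower in both cultures than in tumours (log2 -1.88 in 2D culture and -1.82 in 3D bioink, adjusted p = 6.98e-08 and 1.01e-07), with a difference of 0.05 between the cultures that was not called. The digestion of the 3D bioink differs between the groups as well, and its part in the early genes cannot be told apart from the gel.

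**Figure D4:**
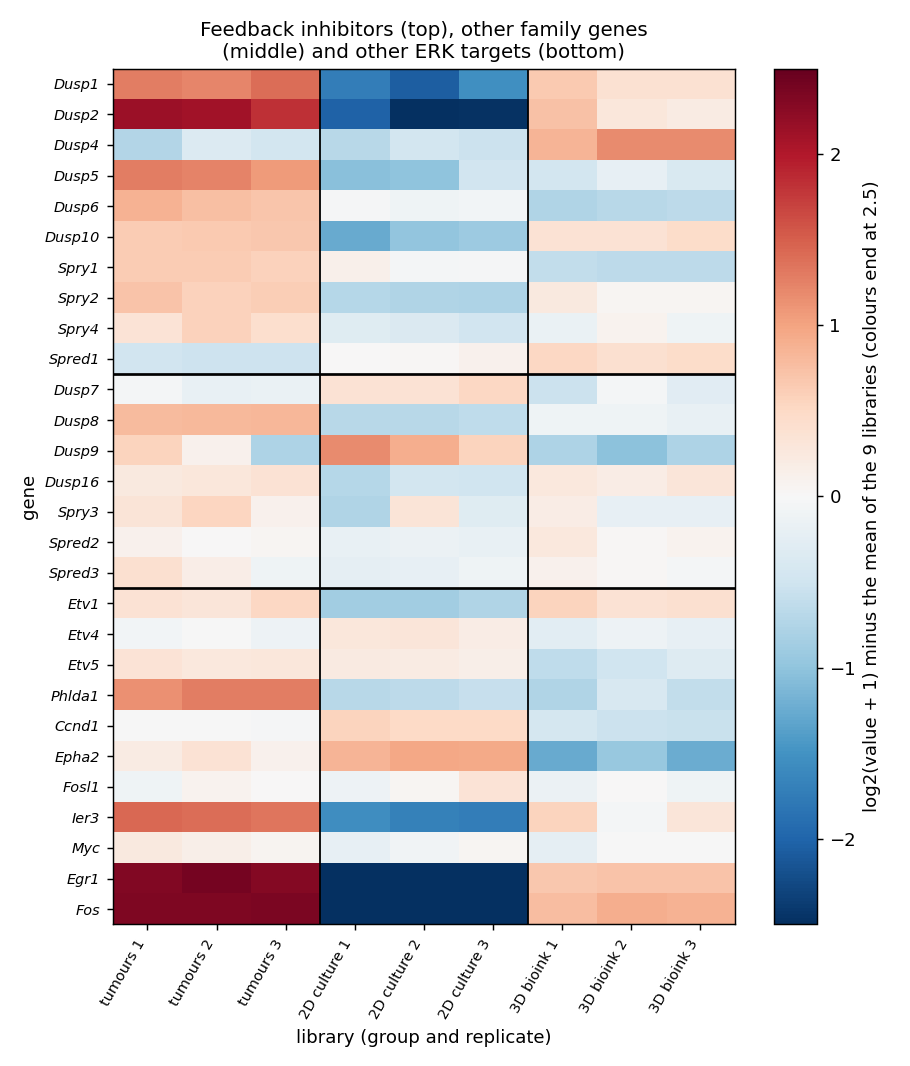
Log2(value + 1) minus the mean of the 9 libraries (colour, ending at 2.5 in both directions) for the 10 feedback inhibitors (top), 7 other family genes (middle) and 11 tested ERK-induced genes (bottom) in each library. Dusp1, Dusp2, Ier3, Egr1 and Fos are high in tumours and low in 2D culture, whereas Dusp6, Spry1, Etv5 and Epha2 are lowest in 3D bioink.

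The cascade itself showed both directions. Of 19 genes from Grb2 to ERK and its kinase targets, 8 were higher and 7 lower in 3D bioink than in tumours (median 0.08), 7 were higher and 7 lower in 2D culture than in tumours (median 0.27), and 6 were higher and 8 lower in 3D bioink than in 2D culture (median -0.10). Neither balance of the 3D bioink was stable. Under 3 other scalings 9 to 10 were higher and 6 lower than in tumours (median 0.26 to 0.34), and 8 to 9 were higher and 5 lower than in 2D culture (median 0.08 to 0.13). Without 3D replicate 1 the median against tumours was -0.04, and without tumour replicate 1 the median of 2D culture against tumours was 0.08. Hras was lower in 3D bioink than in 2D culture (log2 -1.49, adjusted p = 1.60e-07), and Shc1, an adaptor between receptors and RAS, was lower there too (log2 -1.25, adjusted p = 0.000287). Of the kinases activated by ERK, Rps6ka3 was higher (log2 1.41, adjusted p = 1.23e-07) and Rps6ka1 lower (log2 -1.21, adjusted p = 4.82e-06) in 3D bioink than in tumours. In 2D culture against tumours Ksr1, a scaffold of the cascade, was lower (log2 -1.07, adjusted p = 0.00120) and Shoc2, which helps to activate RAF, was higher (log2 1.02, adjusted p = 0.000230). Of 15 tested p38 and JNK cascade genes, 5 were higher and 4 lower in 3D bioink than in tumours. In 2D culture 4 were higher and 5 lower than in tumours, and 5 were higher and 4 lower in 3D bioink than in 2D culture. In each comparison 6 of the 15 were not called. Over all genes tested 64.4%, 54.3% and 59.2% were called in these comparisons, so such counts do not set this list apart. The first balance was 8 higher and 3 lower at equal upper quartiles, 7 and 3 at equal sums, and 4 and 4 without 3D replicate 1. Map3k5, a stress-activated kinase upstream of JNK and p38, had the order 3D bioink, tumours, 2D culture, with values of 699, 642 and 662, of 517, 405 and 369, and of 121, 108 and 107. Mapkapk3, a kinase activated by p38, was lower in 2D culture (log2 -1.86, adjusted p = 6.15e-07) and in 3D bioink (log2 -1.27, adjusted p = 8.03e-06) than in tumours. Mapk11, a p38 isoform, was lower in 3D bioink than in 2D culture (log2 -0.78, adjusted p = 0.0102). Mapk10, a JNK isoform, was called higher in 3D bioink than in tumours (log2 1.10, adjusted p = 0.0276), but not without tumour replicate 2 (adjusted p = 0.0628) or 3 (0.0616), nor without any one 3D replicate (0.0516 to 0.0658), nor after quantile normalization (0.0504).

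Upstream of RAS are growth factor receptors and their ligands. Of 7 tested FGF ligands and receptors, 6 were higher and none lower in 3D bioink than in tumours (median 1.88), and 4 were higher and 1 lower in 2D culture than in tumours (median 0.78). Between the cultures 5 of the 7 were higher in 3D bioink and none lower (median 0.62). The 7 were those of 11 listed with a mean of at least 10. Fgf18 passed that filter only through 3D bioink (means 7.33 in tumours, 3 in 2D culture and 38.7 in 3D bioink). Fgf7 passed only through the cultures (8.33, 133 and 117), so the places of both in these counts depend on the filter. Fgfr3 had values of 540, 546 and 511 in tumours and 1341, 1343 and 1162 in 2D culture, against 2224, 1983 and 1720 in 3D bioink. Fgf7, a ligand made by stromal cells, went from 5 to 10 in tumours to 121 to 149 in 2D culture and 97 to 148 in 3D bioink (log2 3.89 and 3.69, adjusted p = 4.32e-06 and 5.60e-06). Fgfr2 was uneven among tumours (32, 4 and 35) and higher in 2D culture and 3D bioink (log2 3.33 and 2.78, adjusted p = 0.00149 and 0.00369, or 2.41 and 1.85 without tumour replicate 2). Fgf18 was at 1 to 6 in 2D culture and 29 to 46 in 3D bioink (log2 3.49, adjusted p = 0.000575, or 2.45 after quantile normalization and 2.48 with a pseudocount of 5). Fgf1 was higher in 3D bioink than in 2D culture (log2 1.84, adjusted p = 0.00590), which was not called after quantile normalization (log2 0.996, adjusted p = 0.0847). Of 11 other receptor kinases, 6 were higher and 4 lower in 3D bioink than in tumours, 4 were higher and 5 lower in 2D culture than in tumours, and 5 were higher and 2 lower in 3D bioink than in 2D culture. At equal upper quartiles none of the 11 was lower in the last comparison, and after quantile normalization 2 were lower in the first. Egfr was at 9 to 28 in tumours, 210 to 246 in 2D culture and 170 to 217 in 3D bioink, and Kit, the stem cell factor receptor, was low in 2D culture alone (17 to 31, against 749 to 828 in tumours and 676 to 757 in 3D bioink). Pdgfra, a receptor of glial progenitors, was higher in 3D bioink than in tumours (log2 2.13, adjusted p = 5.81e-07) and than in 2D culture (log2 1.33, adjusted p = 1.79e-05).

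Of 14 other inhibitors of receptors, RAS or ERK, 7 were higher and 5 lower in 3D bioink than in tumours (median 0.34), 2 were higher and 2 lower in 2D culture than in tumours (median 0.07), and 6 were higher and 4 lower in 3D bioink than in 2D culture (median 0.51). The first median was 0.58 to 0.60 under 3 other scalings, 0.51 without 3D replicate 1 and 0.58 without tumour replicate 2. The second ran from -0.07 to 0.26, with 1 to 4 genes higher, over the alternatives, and the third was 0.26 after quantile normalization. Rasa1 and Rasa2, which encode GTPase activating proteins of RAS, were higher in 3D bioink than in tumours (log2 1.27 and 1.09, adjusted p = 4.13e-06 and 1.05e-05). Pea15a, which encodes a protein that holds ERK in the cytoplasm, was lower (log2 -1.16, adjusted p = 3.10e-06). Dok1, an adaptor that recruits a RAS inhibitor, was lower in 3D bioink than in 2D culture (log2 -1.96, adjusted p = 5.05e-06). Pebp1, an inhibitor of RAF, was higher in 2D culture than in tumours (log2 0.67, adjusted p = 3.74e-06). Dok2, a relative of Dok1 known in blood cells, was lower in 2D culture (log2 -3.86, adjusted p = 0.000485, or -3.15 without 2D replicate 3, -3.05 after quantile normalization and -3.24 with a pseudocount of 5) and 3D bioink (log2 -2.67, adjusted p = 0.00391) than in tumours. Lrig1, a receptor inhibitor, was uneven among tumours (205, 23 and 0), and its difference for 3D bioink (log2 5.19, adjusted p = 0.0124) was 6.99 without tumour replicate 1 and 3.14 without replicate 3.

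**Figure D5:**
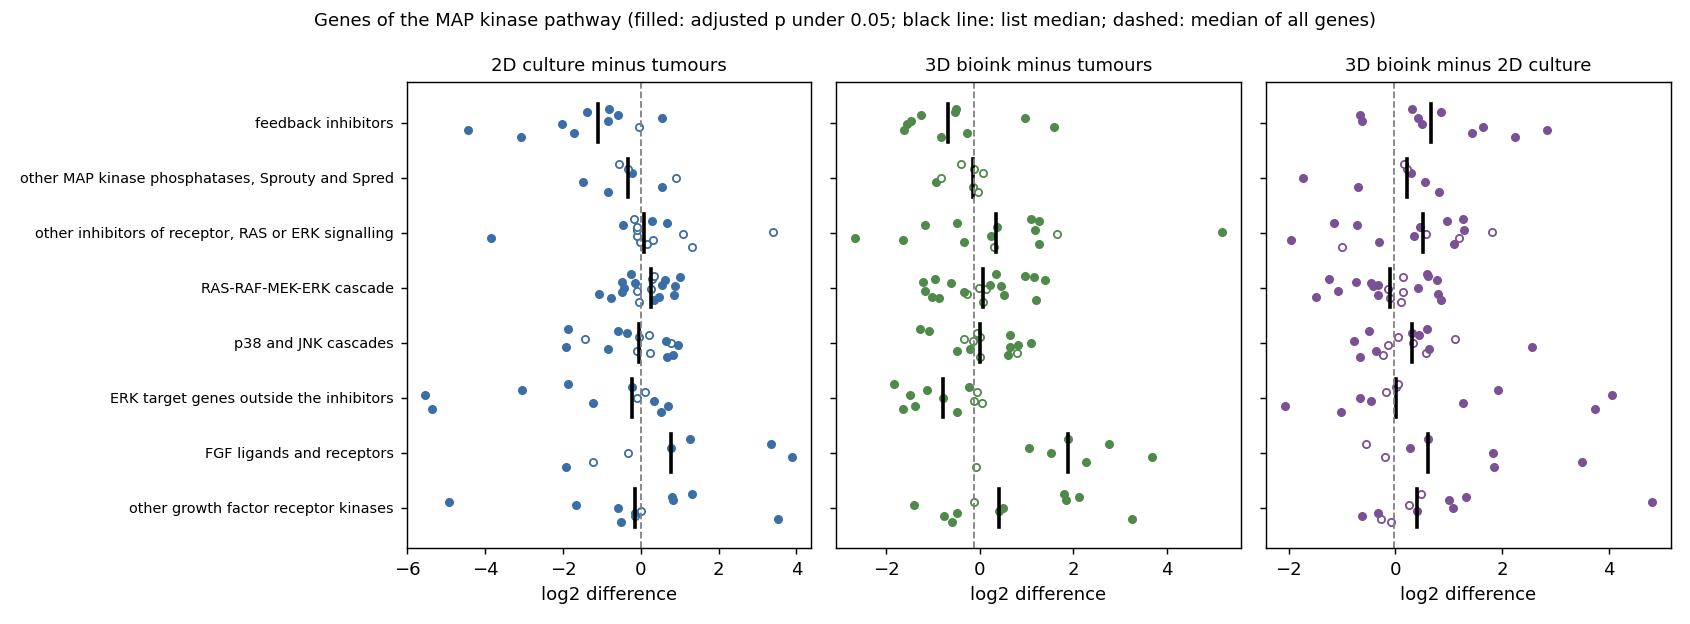
Log2 difference of each tested gene of 8 lists of the MAP kinase pathways in 2D culture minus tumours, 3D bioink minus tumours and 3D bioink minus 2D culture. Filled points passed an adjusted p of 0.05, black lines are list medians and dashed lines are the median of all genes. The 10 feedback inhibitors have medians of -1.11, -0.67 and 0.68, beside 0.01, -0.11 and -0.02 for all genes.

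Profiles over the 9 libraries were compared by Pearson's r of log2 values among 10179 genes with a mean of at least 100, as a description. With 3 groups that differ widely, many genes share a profile, and between 182 (for Dusp4) and 449 (for Dusp5) had an r above 0.95 with a given member. The closest to Dusp6 was Tspan4 (r = 0.999), to Spry1 Cd276 (0.999), to Spry2 Ier3 (0.997), to Dusp10 Ubald1 (0.997), to Dusp2 Lgr6 (0.996), to Spred1 Cyp51 (0.996), to Dusp1 Ppp1r16b (0.996), to Dusp5 Ssbp3 (0.995), to Dusp4 Vps13d (0.993) and to Spry4 Ttc28 (0.984).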

How the data were processed

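The 9 bulk RNA libraries (3 per group) used 25 to 75 ng of RNA, 14 cycles of PCR and a directional kit, per the labels' protocols. Each deposited score is a whole number for 1 symbol in 1 library, which the authors normalized from counts and rounded. The submitters' processing notes name DESeq2 1.24.0, DESeq, RSEM, kallisto and build mm10, and state neither their role nor their order. Depth per library is unknown, so no counting interval is given.

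Libraries were grouped by their titles. Of 20778 symbols, 2865 were 0 in every library. Values were taken as log2(value + 1), and genes with a mean of at least 10 were fitted in limma 3.58.1 (R 4.3.3) with 1 model for all 9 libraries and eBayes with a trend. All 10 members are named, as are the 2 genes of each pathway list with the largest called difference per comparison; other list genes were named for their role or after their values were seen. Members and lists (14 lists, 155 entries, 154 in the table) were chosen with earlier results of these data known. Gene positions are RefSeq's (GRCm38.p6, also called mm10), and overlaps and transcript lengths are from GENCODE M21. Same-numbered libraries of different groups deviated together only weakly, if at all (correlations of -0.03 to 0.08 over 9 pairs, and -0.06 to 0.05 over 18 pairs of different numbers). Between tumours and 3D bioink, the same-numbered pairs (0.03 to 0.08) lay above all pairs of different numbers (-0.06 to 0.01). Python 3.11.15 was used for the lists, promoters and figures. Alternatives were other pseudocounts (0.5 and 5), no filter, 3 scalings, 2 groups at a time, array weights, a replicate block, and each library left out.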

Additional observations from a re-analysis of the deposited data

How the results depend on the processing

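Over 18 alternatives, the 30 member differences kept their direction and call in 524 of 540 cases, lost the call in 12 and changed sign in 4. The sign changes were those of Dusp10 in 3D bioink minus tumours at equal sums (log2 0.00069), and of Dusp4 in 2D culture minus tumours at equal sums (0.018), without tumour replicate 2 (0.037) and without 2D replicate 1 (0.016), none of them called. Leaving out 1 library at a time moved that Dusp4 difference between -0.155 and 0.037. The losses were all in Dusp10 and Spry4 in 3D bioink minus tumours and Dusp5 and Spry4 in 3D bioink minus 2D culture. The cause was not tested. Members lower in 3D bioink than in tumours numbered 8, or 7 after quantile normalization, at equal sums and without tumour replicate 2 or 3 or 3D replicate 1 or 2, and 6 at equal upper quartiles. Members higher in 3D bioink than in 2D culture numbered 8, or 7 without any one 2D replicate and 6 without 3D replicate 2. With the replicate block the counts of members were unchanged, and 3682 genes were higher and 5113 lower in 3D bioink than in tumours, beside 3737 and 5132. The titles do not say whether the numbers pair the libraries, and correlations between same-numbered libraries were small.

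Scaling moved the balance of all genes. In 3D bioink minus tumours 42.1% of called genes were higher as deposited, 51.2% after quantile normalization, 55.0% at equal upper quartiles and 56.1% at equal sums, as the median log2 difference went from -0.11 to 0.04, 0.12 and 0.14. In 3D bioink minus 2D culture the share was 45.6% as deposited and 46.6% after quantile normalization (median -0.02 and -0.06). It was 60.1% at equal upper quartiles and 57.8% at equal sums (median 0.20 and 0.17). In 2D culture minus tumours the share went from 50.3% to 59.5% after quantile normalization, and the median from 0.01 to 0.18. Depth is unknown, which limits the reading of low values such as Dusp2 in 2D culture and Dusp9.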
